A study of Mus musculus with 8 samples.

Results

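The dual-specificity MAPK phosphatases Dusp1, Dusp2, Dusp4, Dusp5, Dusp6, Dusp7, Dusp10 and Dusp16 and the feedback inhibitors Spry2 and Spred1 were examined in macrophages treated with recombinant FSTL1 (rFSTL1). They were taken by gene symbol, and all 10 were found among the 22013 genes of the count table. All 10 also passed the filter on low counts, which left 10748 genes for testing. The cells were RAW264.7, an established mouse macrophage-like line that grew out of a tumour induced by Abelson leukaemia virus. One group of 4 libraries came from cells given rFSTL1 at 100 ng/mL for 24 h, and the other 4 libraries came from cells given PBS. The labels name no genetic change in either group, and both rest on this 1 line. The labels do not say whether the 4 libraries of a group came from separate cultures, so p-values here measure the spread between these libraries, which may be technical.

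MAP kinases carry signals from growth factor, cytokine and Toll-like receptors to the nucleus through 3 main branches, ERK, JNK and p38. MAPK phosphatases switch the kinases off by removing phosphate from both the threonine and the tyrosine of the activation loop. Sprouty and Spred proteins act further upstream, where they restrain the activation of Ras and Raf. Many of these genes are transcribed in response to the kinases that they restrain, so their RNA is widely used as a readout of MAPK activity, and in macrophages they limit the output of inflammatory stimulation. RNA levels do not measure phosphorylation, which was not assayed in these libraries.

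Total counts were 15062023 to 20234477 per library. All 8 macrophage markers checked, among them Csf1r, Cd68 and Lyz2, were present in every library at 1 CPM (count per 1e6 counts of the scaled library) or more, and their summed level was 3892 to 4062 CPM under PBS and 3875 to 4084 CPM under rFSTL1. The summed levels of 4 fibroblast, 4 endothelial and 4 epithelial and hepatocyte markers were at most 1.11 CPM in any library, and Epcam and Pdgfra were at 0 in all of them. Mitochondrial genes took 5.92% to 6.51% of counts in the PBS libraries and 6.19%, 6.50%, 5.41% and 4.87% in rFSTL1 replicates 1 to 4.

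The promoters of the members are shown where they hold a motif of the transcription factors that MAP kinases act on. The sequences run from 250 bases before to 50 bases after the transcription start in RefSeq on build GRCm38.p6, and 9 of the 10 members, all but Dusp4, were matched. Capitals mark the matches, which were searched on both strands and did not overlap one another. The motifs were TGACGTCA (the CRE element bound by CREB and ATF proteins), TGANTCA (AP-1), CCGGAA (ETS) and the CArG box of serum response factor. Among 32851 promoters of this length, 1.79% hold the CRE motif, 7.81% the AP-1 motif, 14.9% the ETS motif and 1.63% a CArG box.
Dusp1 (chr17:26508423-26508722, minus strand), 1 CRE: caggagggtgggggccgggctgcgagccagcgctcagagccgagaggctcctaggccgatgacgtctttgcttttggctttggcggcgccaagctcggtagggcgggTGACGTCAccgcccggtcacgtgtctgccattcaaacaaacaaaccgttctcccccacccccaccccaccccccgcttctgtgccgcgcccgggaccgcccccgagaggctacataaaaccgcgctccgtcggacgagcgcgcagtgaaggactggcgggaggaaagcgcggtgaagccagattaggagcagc
Dusp5 (chr19:53528895-53529194, plus strand), 2 CArG boxes: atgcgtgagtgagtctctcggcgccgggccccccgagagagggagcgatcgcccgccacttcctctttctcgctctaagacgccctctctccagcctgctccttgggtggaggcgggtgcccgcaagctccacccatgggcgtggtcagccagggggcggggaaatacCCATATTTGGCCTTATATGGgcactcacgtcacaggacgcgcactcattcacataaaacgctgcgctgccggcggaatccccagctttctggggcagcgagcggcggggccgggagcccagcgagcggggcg
Spry2 (chr14:105896770-105897069, minus strand), 1 ETS: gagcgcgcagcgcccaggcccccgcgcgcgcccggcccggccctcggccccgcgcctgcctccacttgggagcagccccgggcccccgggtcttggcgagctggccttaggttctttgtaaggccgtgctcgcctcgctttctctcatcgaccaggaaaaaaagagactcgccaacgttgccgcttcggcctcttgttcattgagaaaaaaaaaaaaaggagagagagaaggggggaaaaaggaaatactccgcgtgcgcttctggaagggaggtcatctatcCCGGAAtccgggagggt

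The CRE of Dusp1 begins at -143 from the start site, the CArG boxes of Dusp5 begin at -82 and -72, and the ETS motif of Spry2 begins at 34. None of these letters were found in the windows of Dusp2, Dusp6, Dusp7, Dusp10, Dusp16 and Spred1. A match describes the sequence and was not measured as a binding site. All 9 windows were rich in GC, with 57.3% (Dusp6) to 78.7% (Dusp7).

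Levels under PBS ranged widely among the members when divided by the length of the longest annotated transcript. Spred1 had the highest level with 81.3 ± 2.88 CPM per kilobase (SD, n = 4). Dusp4 followed with 44.3 ± 0.621 CPM per kilobase (SD, n = 4) and made up 60.4% to 63.3% of the summed per-kilobase level of the 8 phosphatases in each library. Dusp16, Dusp7 and Dusp6 formed a middle tier with 8.22, 7.26 and 6.39 CPM per kilobase. Dusp2 and Dusp1 had 1.80 and 1.24 CPM per kilobase. Dusp5, Spry2 and Dusp10 were lowest with 0.799, 0.778 and 0.705 CPM per kilobase. By the mean per-kilobase level over all 8 libraries, Spred1 lay above 92.8% of the genes tested, and Dusp5, Spry2 and Dusp10 lay above 7.31%, 8.56% and 7.15%. Neighbours in this order did not overlap between their 4 PBS libraries, except Dusp2 with Dusp1, Dusp5 with Spry2 and Spry2 with Dusp10. Under rFSTL1, Spred1 and Dusp4 remained first and second and did not overlap with each other, while Dusp16, Dusp7 and Dusp6 overlapped as neighbours.

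The comparison of rFSTL1 with PBS asked whether the RNA of this feedback system differed after 24 h of treatment. With the quasi-likelihood test of edgeR, adjusted by Benjamini-Hochberg over all genes, 0 of the 10 members had an adjusted p under 0.05, against 0.344% of all genes tested. At an unadjusted p under 0.05 the count was 4 of 10, namely Dusp1, Dusp6 and Spry2 with a positive and Spred1 with a negative log2 fold change, against 15.9% of all genes tested. DESeq2 called 0 members, with 5 of the 10 (Dusp1, Dusp2, Dusp5, Dusp10 and Spry2) given no adjusted p, against 2.39% of the 8049 genes to which it gave one. Limma voom with sample quality weights called 1 member, Spred1, against 4.22% of all genes tested. In bulk RNA, fewer cells that express a gene and less of its RNA per cell cannot be told apart. Of the 10 members, 8 had a positive log2 fold change and 2 a negative one, and the median was 0.10 against 0.01 over all genes tested. At an unadjusted p under 0.05 the count was 2 by DESeq2 and 2 by limma voom, against 10.6% and 23.4% of all genes under the same tools. By edgeR it was 1 without rFSTL1 replicate 4, 2 without PBS replicate 4 and 2 without rFSTL1 replicate 2, where 11.6%, 11.7% and 21.4% of all genes tested reached it.

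**Figure D1:**
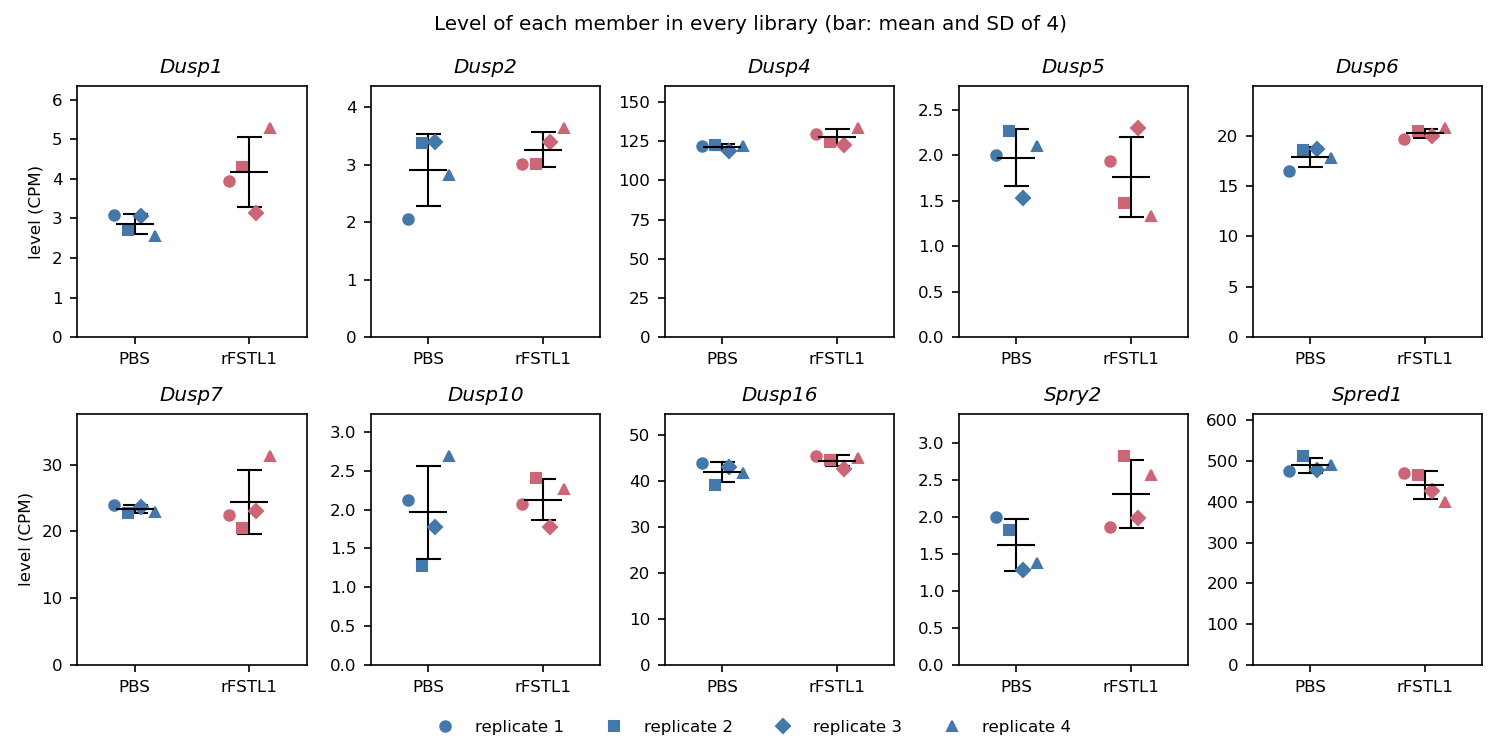
Level of each member in every library. The vertical axes give CPM from 0, each point is 1 library with a symbol for its replicate number, blue points are PBS and red points rFSTL1, and bars give the mean and SD of 4 libraries. Dusp1 and Dusp6 were higher in all 4 rFSTL1 libraries than in any PBS library, and Spred1 was lower in all 4.

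Dusp1 (ENSMUSG00000024190) is an immediate-early gene of activated macrophages that encodes a nuclear phosphatase of p38 and JNK. Its level was 3.10, 2.71, 3.06 and 2.56 CPM in the 4 PBS libraries and 3.94, 4.31, 3.14 and 5.29 CPM in the 4 rFSTL1 libraries. All rFSTL1 libraries lay above all PBS libraries, with replicate 4 the highest and replicate 3 just over the PBS range. The log2 fold change was 0.54 (standard error 0.18, adjusted p = 0.197 by edgeR with Benjamini-Hochberg adjustment), with a 95% interval of 0.15 to 0.93. The two-sided exact permutation p was 0.0286, the smallest that 4 against 4 libraries can give. The values rest on 39 to 103 counts per library. Without rFSTL1 replicate 4 the log2 fold change was 0.40. Of the 3311 exon bases of Dusp1, 11 are shared with the opposite-strand gene Ergic1, and reads from these bases cannot be assigned to a strand where the counting did not use it. Ergic1 itself had a log2 fold change of 0.05.

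Dusp2 (ENSMUSG00000027368), a nuclear phosphatase that is abundant in activated leukocytes, was measured at 2.06, 3.38, 3.40 and 2.83 CPM under PBS and 3.01, 3.02, 3.40 and 3.64 CPM under rFSTL1. The groups overlapped, with PBS replicate 1 the lowest library. Its log2 fold change of 0.16 (standard error 0.19) had a 95% interval of -0.24 to 0.56. Without PBS replicate 1 it was 0.02, without rFSTL1 replicate 4 it was 0.10, without PBS replicate 3 it was 0.25, and after the length and GC correction it was 0.048.

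Dusp4 (ENSMUSG00000031530) encodes a nuclear phosphatase induced by ERK. Its levels were close within the PBS group, at 122, 123, 119 and 122 CPM, and were 130, 124, 122 and 134 CPM under rFSTL1. Replicates 1, 2 and 4 of rFSTL1 lay above the PBS range and replicate 3 lay inside it. The log2 fold change was 0.07 with a standard error of 0.04 (exact permutation p = 0.0571). The 95% interval of this most abundant phosphatase of the list was -0.02 to 0.16. Its log2 fold change was 0.046 without rFSTL1 replicate 4, and 0.0062 (adjusted p = 0.971 by edgeR) after the correction for transcript length and GC that is described for Spred1.

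Dusp5 (ENSMUSG00000034765), a nuclear phosphatase selective for ERK, had 2.0, 2.27, 1.53 and 2.10 CPM under PBS and 1.94, 1.48, 2.30 and 1.33 CPM under rFSTL1. Both the highest and the lowest library belonged to the rFSTL1 group. With 24 to 44 counts per library, the log2 fold change of -0.16 had a wide 95% interval, -0.66 to 0.34, and under limma voom it was 0.00. It ranged from -0.32 without rFSTL1 replicate 3 to -0.036 without rFSTL1 replicate 4, and was -0.27 without PBS replicate 3, -0.093 without rFSTL1 replicate 2 and -0.079 without PBS replicate 2. An opposite-strand annotated gene covers 547 of the 2473 exon bases of Dusp5, so part of its reads may belong to that gene.

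Dusp6 (ENSMUSG00000019960) encodes the cytoplasmic phosphatase that binds and inactivates ERK and is the classical feedback target of this kinase. It was measured at 16.5, 18.5, 18.7 and 17.8 CPM under PBS and at 19.7, 20.4, 19.99 and 20.8 CPM under rFSTL1. The 4 rFSTL1 libraries lay close together above all PBS libraries. Its log2 fold change was 0.18 (standard error 0.07, adjusted p = 0.259 by edgeR with Benjamini-Hochberg adjustment), and the exact permutation p was 0.0286. Its change on the log2 scale stayed between 0.13 and 0.20 over the 17 alternatives run.

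Dusp7 (ENSMUSG00000053716), a cytoplasmic relative of Dusp6, had 23.9, 22.8, 23.7 and 22.9 CPM under PBS and 22.5, 20.5, 23.1 and 31.4 CPM under rFSTL1. Replicate 4 of rFSTL1 was above every other library, while replicates 1 and 2 were below all PBS libraries. The log2 fold change was 0.07 (standard error 0.11), and without rFSTL1 replicate 4 it was -0.081.

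Dusp10 and Dusp16 encode phosphatases directed at JNK and p38. Dusp10 (ENSMUSG00000039384) had 2.13, 1.27, 1.78 and 2.69 CPM under PBS and 2.07, 2.40, 1.78 and 2.26 CPM under rFSTL1. All rFSTL1 values of Dusp10 lay within the PBS range, and the log2 fold change was 0.13 with a 95% interval of -0.38 to 0.63. Leaving out 1 library moved it between -0.035 (without PBS replicate 2) and 0.30 (without PBS replicate 4). Dusp16 (ENSMUSG00000030203) had 43.9, 39.0, 43.1 and 41.7 CPM under PBS and 45.5, 44.5, 42.7 and 45.0 CPM under rFSTL1. For Dusp16, 3 of the 4 rFSTL1 libraries lay above all PBS libraries, with a log2 fold change of 0.08 (95% interval -0.04 to 0.20, exact permutation p = 0.0857). Without PBS replicate 2 it was 0.048.

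Spry2 (ENSMUSG00000022114) encodes Sprouty 2, an inhibitor of receptor tyrosine kinase signaling whose transcription is driven by ERK. It had 2.0, 1.83, 1.28 and 1.38 CPM under PBS and 1.87, 2.83, 1.99 and 2.57 CPM under rFSTL1. Replicates 2 and 4 of rFSTL1 lay above the PBS range, and replicates 1 and 3 lay inside it. For Spry2 the log2 fold change was 0.52 with a standard error of 0.23 (adjusted p = 0.289 by edgeR with Benjamini-Hochberg adjustment), with a 95% interval of 0.03 to 1.00. The exact permutation p was 0.0857, and the values rest on 21 to 50 counts per library.

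Spred1 (ENSMUSG00000027351), which recruits the Ras inhibitor neurofibromin to the membrane, was the member with the highest level. It was measured at 476, 513, 477 and 490 CPM under PBS and at 471, 466, 427 and 400 CPM under rFSTL1. All rFSTL1 libraries lay below all PBS libraries, with replicate 1 only just below and replicate 4 the lowest. For Spred1 the log2 fold change was -0.15 (standard error 0.05, adjusted p = 0.205 by edgeR with Benjamini-Hochberg adjustment), and the exact permutation p was 0.0286. Under limma voom the adjusted p was 0.0415 at a log2 fold change of -0.16. A correction for how counts in each library depended on the length and GC of transcripts, chosen after seeing the data, left a log2 fold change of -0.05 (adjusted p = 0.466 by edgeR). The longest Spred1 transcript has 6016 bases and a GC content of 41.2%, the longest and the lowest in GC of the 10 members. Replicates 3 and 4 of rFSTL1, the 2 libraries with the lowest Spred1 level, were also the 2 with the lowest mitochondrial share of counts. Replicate 4 was also the highest library for Dusp1, Dusp2, Dusp4, Dusp6 and Dusp7 and the lowest for Dusp5. For Dusp10, Dusp16 and Spry2 it was neither. The part of these library differences in the results was not tested.

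**Figure D2:**
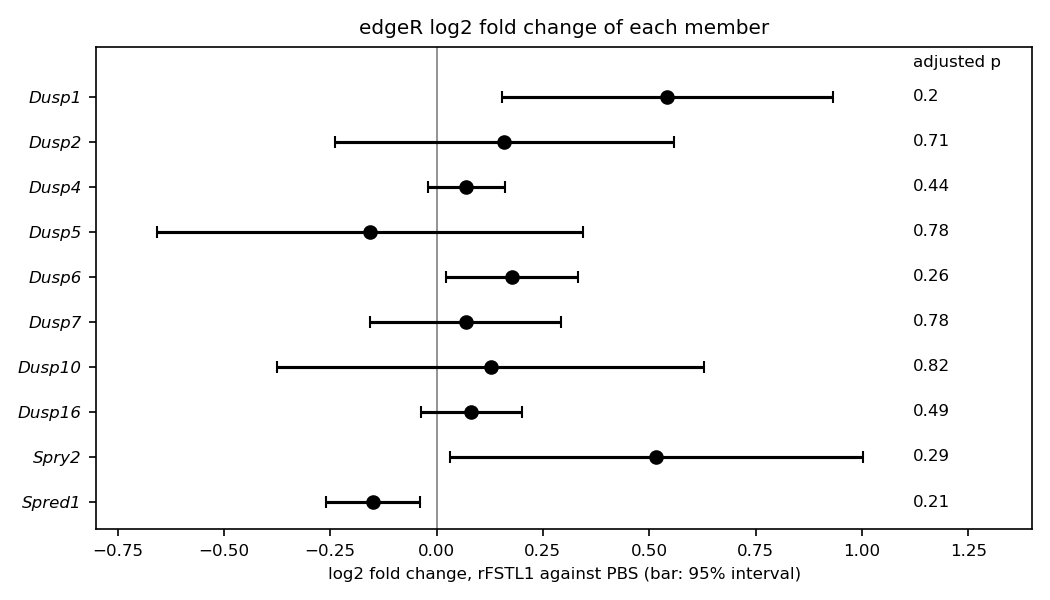
Log2 fold change of each member, rFSTL1 against PBS, with its 95% interval as a bar and the edgeR adjusted p at the right. The intervals of Dusp1, Dusp6, Spry2 and Spred1 do not include 0, and no adjusted p is under 0.05, the lowest being 0.197 for Dusp1.

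**Figure D3:**
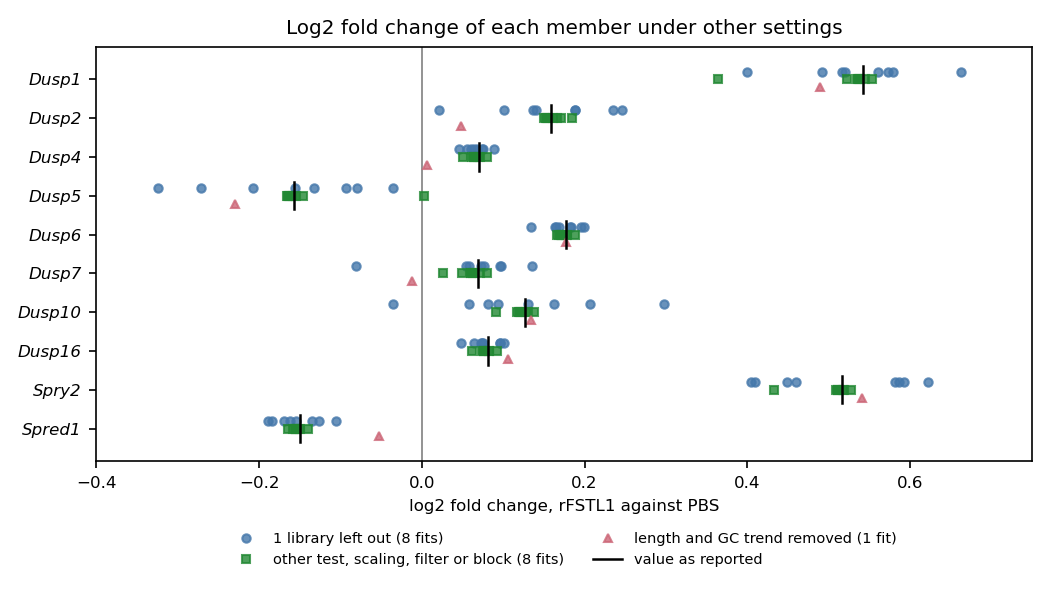
Log2 fold change of each member, rFSTL1 against PBS, as reported (black line) and under 17 alternatives, 1 of them (the length and GC correction) chosen after seeing the data. Blue circles leave out 1 library, green squares use another test, scaling, filter or block, and the red triangle removes the length and GC trend. Dusp1, Dusp2, Dusp4, Dusp6, Dusp16, Spry2 and Spred1 keep their sign in all 17, while Dusp5, Dusp7 and Dusp10 do so in 16, 15 and 16.

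Groups did not overlap for 2 members that were higher under rFSTL1, Dusp1 and Dusp6, against 4.63% of all genes tested. They did not overlap for 1 member that was lower, Spred1, against 3.53% of all genes tested. The number of members without overlap in either direction was 3. Without rFSTL1 replicate 3, Dusp4 and Dusp16 joined Dusp1 and Dusp6 as higher and Spred1 was again lower, 5 in all, where 5.6% of all genes tested did not overlap as higher and 4.32% as lower.

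The pattern of Dusp1, the member with the largest log2 fold change in the edgeR fit reported above, was compared with that of every other gene tested. Spry2 had a larger value than Dusp1 under limma voom (0.43 against 0.36) and after the length and GC correction. The same held without PBS replicate 1 or 2 or without rFSTL1 replicate 1 or 4. Likeness was the root-mean-square difference of log2(CPM + 1), centred per gene, over the 8 libraries, with a median of 0.28 over the genes tested. The closest genes were M1ap (0.09), Lmf1 (0.10) and Sertad1 (0.11). Their log2 fold changes were 0.41, 0.29 and 0.32. These follow in part from the choice, because likeness over the 8 libraries includes the difference between the groups. Dusp1 itself had an SD of 0.28 on this scale, which equals the median likeness.

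Other genes of the pathway were read from lists written from general knowledge, with earlier results of these data known. Of 12 other dual-specificity phosphatases, 8 were tested and 0 had an adjusted p under 0.05 by edgeR or by DESeq2, while 1 had an unadjusted p under 0.05, against 15.9% of all genes tested. That gene was Dusp11, an RNA phosphatase rather than a MAPK phosphatase, with 129 ± 4.12 CPM under PBS and 117 ± 5.06 CPM under rFSTL1 (SD, n = 4). Its log2 fold change was -0.14, and limma voom called it. After the length and GC correction no gene of this list had an unadjusted p under 0.05, and the share of all genes was not computed for that fit. The value of Dusp19 was the largest of this list, 0.25 with a standard error of 0.17. Of the remaining MAPK phosphatases, Dusp8 reached 10 counts in its highest library and Dusp9 had none.

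Of 9 other Sprouty and Spred genes and partners, 7 were tested and 0 had an adjusted p under 0.05 by edgeR, DESeq2 or limma voom. An unadjusted p under 0.05 was found for 2 of the 7, against 15.9% of all genes tested. These were Spred3, with a log2 fold change of 0.43 (standard error 0.19), and Rasa1, a Ras inhibitor, with -0.11 (standard error 0.05). The count of 2 was 0 without PBS replicate 2, without rFSTL1 replicate 4 or after the length and GC correction. It was 1 without any 1 of the other 6 libraries. Over all genes the share was 11.7% without PBS replicate 4, 11.6% without rFSTL1 replicate 4 and 21.4% without rFSTL1 replicate 2. For the other fits named here no such share was computed. Rasa1 was named after its value was seen. The value of Spry4 was 0.26 (standard error 0.28), and Spry1 had no count. Spred2, the closest relative of Spred1, had 78.9 ± 3.52 CPM under PBS and 79.6 ± 4.14 CPM under rFSTL1 (SD, n = 4), a log2 fold change of 0.01. It was also named after its value was seen.

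The next lists held the kinases that these phosphatases and inhibitors act on. In the ERK arm, which runs from Csf1r, the receptor for the growth factor M-CSF, through Ras and Raf to ERK, 17 of 18 genes were tested and 0 had an adjusted p under 0.05 by edgeR or DESeq2. At an unadjusted p under 0.05, 3 had a positive and 1 a negative log2 fold change, 4 of 17 against 15.9% of all genes tested. This count was 1 without PBS replicate 4, 2 without PBS replicate 1 or 2 or rFSTL1 replicate 3 or 4, and 6 without rFSTL1 replicate 1. It was 2 by DESeq2, 2 with library totals alone, 2 with the filter at 1 CPM in 4 libraries and 6 by limma voom. Over all genes the share was 11.7% without PBS replicate 4, 11.6% without rFSTL1 replicate 4, 10.6% by DESeq2 and 23.4% by limma voom. For the other fits named here no such share was computed, so their counts cannot be set against one. Sos1, an activator of Ras, had the lowest value of the arm, with -0.19 (standard error 0.05), and limma voom called it. Map2k2, the kinase MEK2, had the highest value, with 0.15 (standard error 0.07). In the JNK and p38 arms, 18 of 21 genes were tested and 0 were called by edgeR or DESeq2, while 1 positive and 3 negative log2 fold changes had an unadjusted p under 0.05, 4 of 18 against 15.9% of all genes tested. The latter count was 1 without PBS replicate 3 or rFSTL1 replicate 4. It was 2 without PBS replicate 1, 2 or 4 or rFSTL1 replicate 3, and 2 with upper-quartile scaling or the replicate block. Of these fits, the share over all genes was computed only without PBS replicate 4 (11.7%) and without rFSTL1 replicate 4 (11.6%). Map2k6 and Mapk11, a kinase of p38 and a p38 isoform, had the largest log2 fold changes in size, -0.27 and 0.24, with standard errors of 0.37 and 0.20. Limma voom called Rps6ka4 in these arms, which encodes a nuclear kinase activated by p38 and ERK and was named after its value was seen, with a log2 fold change of 0.21. The median log2 fold change was 0.02 for the ERK arm and 0.00 for the JNK and p38 arms.

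Among 18 genes known to be transcribed in response to ERK, 17 were tested. Whether ERK drove the values of these genes here was not tested. By edgeR, 1 had an adjusted p under 0.05, namely Ier3, an immediate-early response gene. Ier3 rose from 35.3 ± 6.46 CPM under PBS to 54.7 ± 5.98 CPM under rFSTL1 (SD, n = 4), 0.63 on the log2 scale with a standard error of 0.11 (edgeR, Benjamini-Hochberg adjusted p = 0.0186). Its call was lost without PBS replicate 2 or 3. Ier3 was already known to have changed in these data when the list was chosen, so its call is no independent evidence. DESeq2 and limma voom each called 3 genes of the list, Ier3, Plaur and Ccnd1, while their calls over all genes were 192 and 454 against 37 by edgeR. The values of Plaur, the urokinase receptor, and Ccnd1, the cyclin that drives entry into S phase, were seen before they were named. By edgeR, Plaur was at 0.40 on the log2 scale with an adjusted p of 0.11, and Ccnd1 at 0.20 with an adjusted p of 0.0673.

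In this list, 16 of 17 log2 fold changes were positive, against 5587 of 10748 over all genes tested, and the median was 0.20 against 0.01. Because the list was chosen with earlier results of these data known, including that of Ier3, these values and those below are no independent evidence. An unadjusted p under 0.05 was reached by 6 of the 17, all positive, against 15.9% of all genes in either direction. The count was 4 to 8 over the 17 alternatives. Where the share over all genes was computed for an alternative, it was 10.6% to 23.4%. The groups did not overlap for 5 of the 17, Phlda1, Ccnd1, Etv5, Ier3 and Maff, all higher under rFSTL1, against 4.63% of all genes tested. Phlda1 rested on 13 to 41 counts per library. Epha2, Etv4, Egr2, Fosl1 and Myc were also low, with group means between 1.41 CPM (Egr2 under PBS) and 3.26 CPM (Myc under rFSTL1). Phlda1, Etv5 and Maff were named after their values were seen. Over the 17 alternatives run, 15 to 17 of the 17 genes had a positive log2 fold change, and the median ranged from 0.15 to 0.28. Fos and Egr1, the immediate-early transcription factors of the ERK response, had log2 fold changes of 0.17 (standard error 0.12) and 0.20 (standard error 0.09), and were named after their values were seen.

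**Figure D4:**
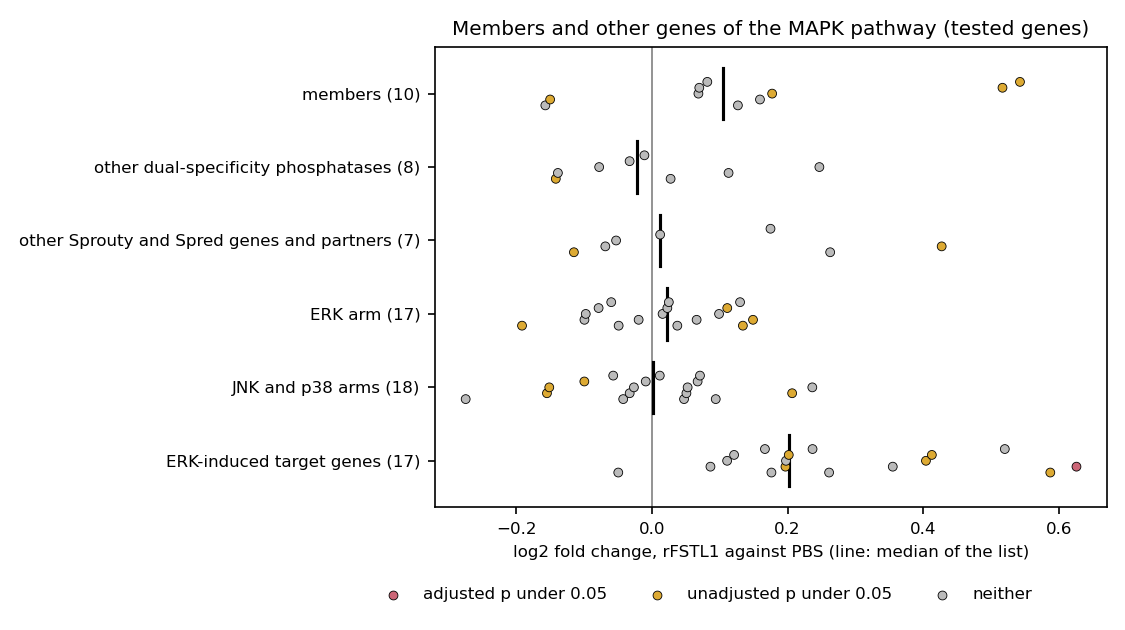
Log2 fold change, rFSTL1 against PBS, of the members and of 5 lists of other pathway genes. Each point is 1 tested gene (red, adjusted p under 0.05; yellow, unadjusted p under 0.05; grey, neither), the black line is the median of its list, and the number of genes tested is in brackets. The medians are 0.10 for the members, 0.02 for the ERK arm and 0.20 for the ERK-induced target genes, where the only gene past an adjusted p of 0.05 is Ier3.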

How the data were processed

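Each of 8 RNA-seq libraries from RAW264.7 was grouped by its treatment label. The authors deposited estimated counts for 22013 genes, not normalized. Of the nonzero values 13.0% were not whole and were rounded, while every value of the members was whole. The submitters' processing notes list Bowtie2 2.2.8, HISAT2, StringTie 1.3.1 and DESeq2. The genome build and the use of strand in counting are not given in the sources used here.

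Genes were filtered with filterByExpr (minimum count 10), scaled by TMM and tested with edgeR 4.0.16 (glmQLFit and glmQLFTest, R 4.3.3), adjusted by Benjamini-Hochberg over all genes at a threshold of 0.05. Standard errors were derived from the F statistic. Exact two-sided permutation tests used log2(CPM + 1) over 70 assignments. Transcript lengths came from GENCODE M21. The scripts were tested on simulated data.

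The members and lists were chosen with earlier results of these data known. All members were named, and from each list the genes past the threshold or otherwise the 2 with the largest absolute log2 fold change. For likeness the 3 closest genes were named. Alternatives were DESeq2 1.42.0, limma voom 3.58.1, other scalings, filters and thresholds, a replicate block, a pseudocount of 0.1 and leaving out each library. A length and GC correction (spline, 4 degrees of freedom, 99.7% of genes tested had a length) was chosen after seeing the data. No 2 libraries of a group were duplicates within sampling noise.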

Additional observations from a re-analysis of the deposited data

How the results depend on the processing

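No member was called under DESeq2, the other scalings and filters, a threshold of 0.1, the length and GC correction or any fit without 1 library. Limma voom with sample quality weights called 1, Spred1 (log2 fold change -0.16), and also 1 other dual-specificity phosphatase, 1 gene of the ERK arm and 1 of the JNK and p38 arms. Dusp5, Dusp7 and Dusp10 reversed direction, and the cause was not tested. Dusp5 was at 0.00 (0.0032) under limma voom, Dusp7 at -0.011 with the trend over length and GC content removed, and Dusp10 at -0.035 without PBS replicate 2.

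Without 1 library, the log2 fold change was -0.081 to 0.13 for Dusp7, with the lowest value and a reversed direction without rFSTL1 replicate 4, and -0.035 to 0.30 for Dusp10. It was -0.19 to -0.11 for Spred1, 0.40 to 0.66 for Dusp1 and -0.32 to -0.036 for Dusp5. The number of members without overlap between the groups was 3 to 5 without 1 library. It was 5 without rFSTL1 replicate 3, where 5.6% of all genes tested did not overlap as higher and 4.32% as lower. No such share was computed for the other fits without 1 library.

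The number of genes called over the whole table, 37, was 192 by DESeq2, 454 by limma voom, 56 with upper-quartile scaling, 127 on all genes with at least 1 count, 84 with the trend removed, 133 at a threshold of 0.1 and 11 (without PBS replicate 2) to 99 (without rFSTL1 replicate 1) when 1 library was left out. For the ERK-induced target genes, 1 called gene became 3 by DESeq2 and by limma voom, 2 with upper-quartile scaling, on all genes with at least 1 count, with the trend removed or at a threshold of 0.1, and 0 to 2 without 1 library. With the replicate number as a replicate block, edgeR called 41 genes and 0 members, and the counts of calls in the lists were as without it. Same-numbered libraries did not deviate together (correlations of -0.018 to -0.00029, none best with its own number), so the numbers were not taken as pairs.

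At 21 to 103 counts per library, the 95% intervals of Dusp1, Dusp2, Dusp5, Dusp10 and Spry2 were wide, which limits the size of difference detectable in these genes.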
